A study of Homo sapiens with 12 samples.

Results

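The genes described here are 38 genes of meiotic entry, chromosome axis, synapsis and recombination, out of 20033 protein-coding genes of GENCODE release 44 that served as the background. A gene was followed through its body plus 2 kb upstream on hg38, and a differentially modified region (DMR) belonged to a gene when its midpoint lay in that span. All 38 symbols were found. The genes were listed by function, and the rule itself uses no measured value, but the list was chosen with earlier results of these data known.

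Meiosis reduces the genome to a single set by pairing homologous chromosomes, breaking and exchanging their DNA, and separating them without an intervening round of replication. Its chromosome axis, its synaptonemal complex and much of its recombination machinery are made by genes that are silent in most somatic cells, several of them under methylated CpG-rich promoters. Primordial germ cells erase most 5-methylcytosine (5mC), in part through oxidation to 5-hydroxymethylcytosine (5hmC) by TET enzymes, and erasure at germline promoters precedes the expression of meiotic genes in the mouse.

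The study profiled 5mC by TAPSβ and 5hmC by CAPS in 12 libraries of the human embryonic stem cell line WIS2, with 2 replicates of each stage in each assay. TAPSβ reads 5mC after 5hmC has been blocked with glucose, and CAPS reads 5hmC after chemical oxidation. The stages were 4i ES cells, which are the germline-competent starting cells, N3+PGCLCs and d8 DZ+PGCLCs. N3+PGCLCs are NANOS3 reporter-positive primordial germ cell-like cells sorted at day 3 of culture with BMP2, SCF and EGF. The d8 DZ+PGCLCs are DAZL reporter-positive cells sorted at day 8, after dexamethasone-inducible SOX17, doxycycline-inducible DMRT1 and a change of medium from BMP2, SCF and EGF to retinoic acid, Activin A, SCF and EGF. Day, medium, transgenes, reporter and sort differed together between these stages and cannot be told apart. The tables used here are 4 lists of DMRs, for 5hmC and 5mC in d8 DZ+PGCLCs and in N3+PGCLCs, each called against 4i ES cells with both replicates pooled. They hold positions and directions only (hyper, more of the modification than in 4i ES cells, or hypo, less), with no level, depth or value per replicate, so that counts are given below without error or p-value. A modification change in a share of the cells and a smaller change in every cell cannot be told apart in such bulk lists. No expression was measured in these libraries, so the lists do not show whether a meiosis gene was transcribed. No marker check of the labelled stages can be made from them either.

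In d8 DZ+PGCLCs, 5 of the 38 genes carried a hyper-5mC DMR, and each of these 5 DMRs contained the start of the canonical transcript. The genes were SYCP1, SYCP2, MEI1, IHO1 and PRDM9. A d8 hyper-5mC DMR contained the canonical start of 0.270% of protein-coding genes (54 genes), against 13.2% of the meiosis genes. With a wider promoter window, from 2000 bases before to 500 bases after the start, the share of protein-coding genes was 1.10% (221 genes) and the meiosis genes were the same 5. Both of these comparisons were chosen after the DMRs had been seen. The planned promoter count took DMRs of any list and gave 21.1% of the meiosis genes against 11.1%. The other d8 calls in the 38 genes were 64 hyper-5hmC, 98 hypo-5mC and 2 hypo-5hmC DMRs. Of these, 2 hyper-5hmC and 1 hypo-5mC DMR reached a promoter window. The d8 table as a whole held 3496 hyper-5mC and 90767 hypo-5mC DMRs.

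The promoters of these 5 genes are printed here because they carry that result. Each run gives the 250 bases before the canonical start on hg38, 5′ to 3′ on the strand of the gene, with capitals for the CpGs that lay inside the hyper-5mC DMR. All 5 runs were identical to the RefSeq promoter sequence of GRCh38.p14. They cover chr1:114854613-114854862 on the plus strand, chr20:59933638-59933887 on the minus strand, and chr22:41699253-41699502, chr3:49199248-49199497 and chr5:23507359-23507608 on the plus strand.
SYCP1: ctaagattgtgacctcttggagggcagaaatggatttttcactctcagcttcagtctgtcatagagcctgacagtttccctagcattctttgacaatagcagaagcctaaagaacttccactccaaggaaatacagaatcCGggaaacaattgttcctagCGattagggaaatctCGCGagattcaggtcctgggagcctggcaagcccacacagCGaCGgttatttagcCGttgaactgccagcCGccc
SYCP2: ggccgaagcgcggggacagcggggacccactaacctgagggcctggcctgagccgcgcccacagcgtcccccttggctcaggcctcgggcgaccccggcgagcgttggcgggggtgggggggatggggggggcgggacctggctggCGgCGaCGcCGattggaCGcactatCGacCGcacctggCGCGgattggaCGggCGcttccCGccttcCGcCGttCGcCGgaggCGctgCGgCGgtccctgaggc
MEI1: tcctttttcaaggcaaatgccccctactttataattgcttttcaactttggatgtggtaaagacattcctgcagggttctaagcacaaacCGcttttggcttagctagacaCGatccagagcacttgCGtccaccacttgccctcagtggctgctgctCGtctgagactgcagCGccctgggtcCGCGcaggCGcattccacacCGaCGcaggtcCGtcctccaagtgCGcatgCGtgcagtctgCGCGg
IHO1: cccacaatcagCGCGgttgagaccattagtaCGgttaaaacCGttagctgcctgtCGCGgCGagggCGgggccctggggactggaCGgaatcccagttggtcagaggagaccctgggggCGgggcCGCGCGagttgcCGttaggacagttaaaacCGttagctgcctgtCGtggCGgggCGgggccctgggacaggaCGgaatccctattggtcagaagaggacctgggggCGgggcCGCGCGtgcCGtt
PRDM9: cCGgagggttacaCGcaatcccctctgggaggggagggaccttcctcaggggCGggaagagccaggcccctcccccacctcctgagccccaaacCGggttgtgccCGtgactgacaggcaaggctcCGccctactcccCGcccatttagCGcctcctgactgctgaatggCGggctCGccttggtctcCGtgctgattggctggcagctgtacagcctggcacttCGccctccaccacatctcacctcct

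SYCP1 encodes the transverse filament protein that zips the paired axes together. Its hyper-5mC DMR lay at chr1:114854753-114855196, from 110 bases before to 333 bases after the start, and held 29 CpGs in 444 bases. In the printed run the CpGs sit in the last stretch before the start, 8 of 8 inside the DMR.

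SYCP2 is the axis protein that anchors the synaptonemal complex. Its DMR at chr20:59933484-59933741 was the shortest of the 5, with 258 bases from 104 before to 153 after the start, and it was the densest, with 36 CpGs or 14 per 100 bases. Only the part of the SYCP2 CpG cluster next to the start was called, 19 of the 33 CpGs in the printed run.

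The other 3 genes act in the formation of meiotic DNA breaks. MEI1, required for break formation in the mouse, had a DMR of 1173 bases and 82 CpGs at chr22:41699001-41700173, from 502 bases before to 670 bases after the start. IHO1, an axis-bound partner of the break machinery, had the widest at chr3:49198929-49200334, with 85 CpGs in 1406 bases from 569 before to 836 after the start. PRDM9, the histone methyltransferase whose zinc fingers choose recombination hotspots, had a DMR at chr5:23506522-23507728 that reached from 1087 bases before to 119 bases after its start, with 55 CpGs in 1207 bases.

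These were large regions by the measure of their own list, most of which lay away from starts. The d8 hyper-5mC DMRs of protein-coding genes had a median width of 446 bases and a median of 11 CpGs, against 1173 bases and 55 CpGs for the 5 in meiosis genes. By number of CpGs they ranked 54 (IHO1), 60 (MEI1), 137 (PRDM9), 214 (SYCP2) and 259 (SYCP1) of 1519, and 267 of the 1519 held at least the 29 CpGs of SYCP1. Of the 1519, 52 (3.42%) contained any canonical start. Over protein-coding genes, the DMRs that contained a canonical start held 15 (GPR50) to 144 (GPR25) CpGs. Large size is therefore not particular to the meiosis genes. No 5hmC DMR of the d8 table overlapped any of the 5, in either direction. Such overlap was rare in the list as a whole, where 14 of the 1519 (0.922%) met a hypo-5hmC DMR. The share that met a hyper-5hmC DMR was not counted. No canonical start of another protein-coding gene lay within 2 kb of them.

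**Figure D1:**
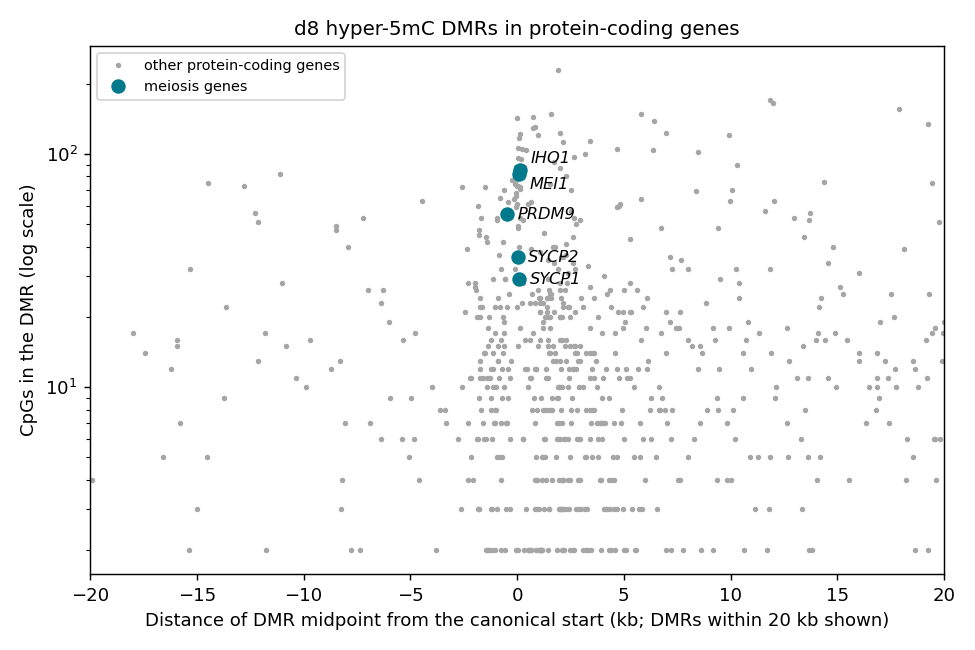
Every d8 hyper-5mC DMR within 20 kb of the canonical start of its protein-coding gene, by distance of the DMR midpoint from the start (kb) and number of CpGs in the DMR (log scale), with meiosis genes as large points. The 5 meiosis genes sit at the start, with 29 to 85 CpGs each.

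CpG content at the start varied among these 5 genes. In the 500 bases on either side of the start, 22 of the 38 members (57.9%) had a CpG-island-like sequence, with at least 55% GC and a CpG observed-to-expected ratio of at least 0.65, against 56.4% of protein-coding genes. A promoter hyper-5mC DMR was called at 3 of the 22 island-like members (MEI1, IHO1 and SYCP2) and at 2 of the other 16 (SYCP1 and PRDM9). Over all protein-coding genes the same shares were 1.17% of 11300 and 1.02% of 8733. The RefSeq promoter table, 250 bases before to 50 after the start, held 32 of the members. Among these, 14 (43.8%) held the E2F-type motif GGCGGGA on either strand, against 25.0% of 15345 protein-coding promoters, and 3 of the 14 were SYCP1, SYCP2 and PRDM9. The E-box CACGTG stood in 4 of the 32 (12.5%, against 10.9%), none of them with a hyper-5mC promoter. Both motifs were chosen after the promoter DMRs had been seen, and a match is a description of the sequence only.

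Counting DMRs of any list, 8 members (21.1%) had one over the promoter window, against 11.1% of protein-coding genes. Besides the 5 above these were REC114, TEX12 and TEX14. REC114 was the single member with promoter loss of 5mC at d8, where 6.93% of protein-coding genes had it, and one of 2 members with promoter gain of 5hmC (5.26%, against 5.09%), TEX12 being the other. In REC114, which recruits the break machinery to chromosomes, a hypo-5mC DMR of 11 CpGs at chr15:73441450-73442204 enclosed a hyper-5hmC DMR of 4 CpGs at chr15:73441513-73441902, more than 900 bases upstream of the start. In TEX12, a component of the central element, the hyper-5hmC DMR lay from 727 to 540 bases before the start and held 6 CpGs. The same bases lie within a longer readthrough gene, ENSG00000255292, and a lncRNA, so the call cannot be given to TEX12 alone. The TEX14 promoter DMR belonged to N3+PGCLCs (hyper-5mC, 3 CpGs, 228 to 152 bases before the start), at a window where 0.669% of protein-coding genes had one. It lies within 329 bases of the start of RAD51C and 152 bases of that of IGBP1C. The TEX12 and TEX14 DMRs are printed whole, with CpGs in capitals, to be set beside the 5 promoters above. They cover chr11:112166645-112166832 (plus strand) and chr17:58692197-58692273 (minus strand, where one more CpG has a single base inside the run).
TEX12: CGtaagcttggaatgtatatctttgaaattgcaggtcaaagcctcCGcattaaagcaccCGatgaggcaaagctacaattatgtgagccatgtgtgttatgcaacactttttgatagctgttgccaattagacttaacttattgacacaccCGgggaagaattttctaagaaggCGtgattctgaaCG
TEX14: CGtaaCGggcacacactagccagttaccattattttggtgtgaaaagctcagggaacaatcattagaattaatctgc

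**Figure D2:**
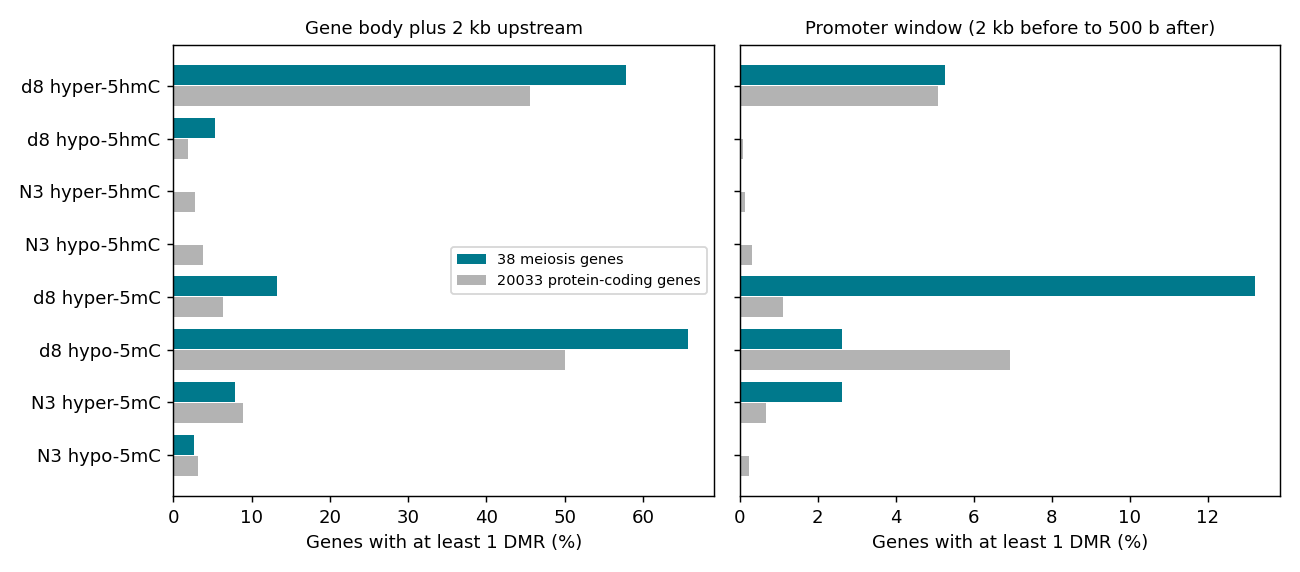
Percent of the 38 meiosis genes and of 20033 protein-coding genes with at least 1 DMR of each list, in the whole gene region (left) and over the promoter window (right). In the promoter panel d8 hyper-5mC stands at 13.2% of meiosis genes against 1.10%, while d8 hypo-5mC stands at 2.63% against 6.93%.

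In whole gene regions the members followed the background more closely. A d8 hyper-5hmC DMR was found in 22 members (57.9%), against 45.6% of protein-coding genes, and a d8 hypo-5mC DMR in 25 (65.8%), against 50.0%. The members are longer than most genes, with a median of 54.3 kb against 27.5 kb. Among the 16203 genes within their length range of 5.18 to 277 kb the shares were 49.9% and 54.8%. That range takes in most protein-coding genes, so length was not matched. Per Mb of gene region the members held 25.4 hyper-5hmC and 38.9 hypo-5mC DMRs, against 24.1 and 41.8 for all protein-coding genes. For d8 hyper-5mC the share over the whole gene region was 13.2% (5 members) against 6.40%. A d8 hypo-5hmC DMR was called in BRDT and MEIOB only (5.26%, against 1.85%), each of 2 CpGs. In all, 29 members (76.3%) held a DMR of some list, against 59.0%.

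Gains of 5hmC at d8 largely coincided with regions that lost 5mC. Of the 64 hyper-5hmC DMRs in members, 44 (68.8%) overlapped a hypo-5mC DMR, a share of 68.2% over all protein-coding genes. Seen from 5mC, 44 of the 98 losses (44.9%) overlapped a gain of 5hmC, against 38.9%. In 25 cases both assays gave a DMR with identical ends. The share of such cases over all protein-coding genes was not counted, so the 25 are a description only. Both changes were called in 19 members (50.0%, against 40.6% of protein-coding genes), 5hmC gain alone in TEX12, MEI1 and MCMDC2 (7.89%, against 5.01%), and 5mC loss alone in SYCP2, TEX15, STAG3, SPO11, MSH4 and RNF212 (15.8%, against 9.36%). Neither was called in 10 (26.3%, against 45.0%). These class shares were not set against genes of like length. Introns of the canonical transcript held 49 of the 64 gains (76.6%, against 80.3% over protein-coding genes) and 75 of the 98 losses (76.5%, against 81.9%). The regions were small, as in protein-coding genes at large. The gains had medians of 4 CpGs and 282 bases, against 4 CpGs and 272 bases, and the losses 5 CpGs and 304 bases, against 5 CpGs and 356 bases.

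**Figure D3:**
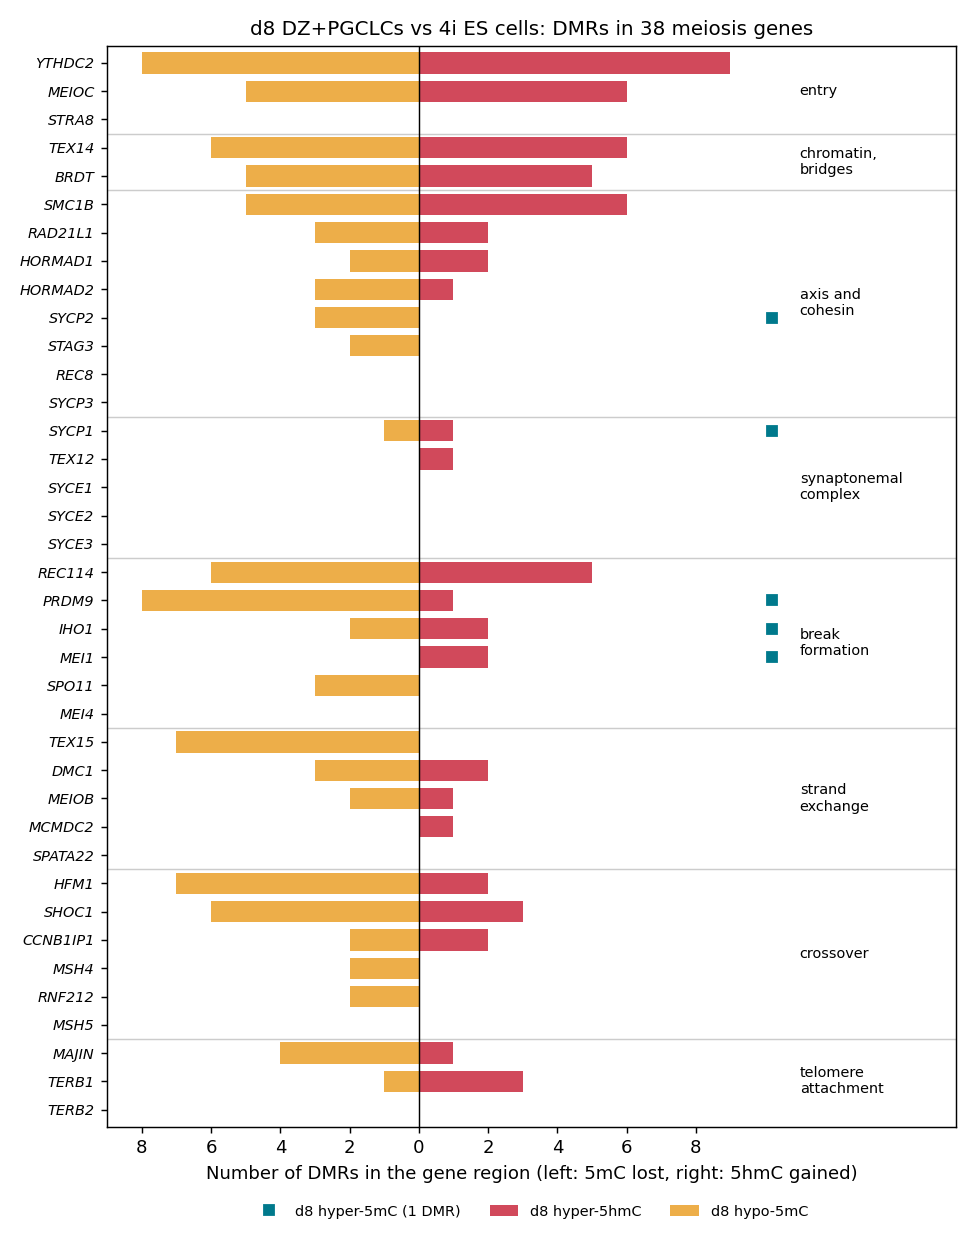
Number of d8 DMRs per meiosis gene, grouped by role, with hypo-5mC DMRs to the left of 0 and hyper-5hmC DMRs to the right. Squares mark the 5 genes with 1 hyper-5mC DMR each, and YTHDC2 has the most DMRs, with 9 gains of 5hmC and 8 losses of 5mC.

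The 3 entry genes held the most d8 DMRs of any role for their length, 101 hyper-5hmC and 87.7 hypo-5mC per Mb. Over all protein-coding genes the rates were 24.1 and 41.8. The entry rates come from YTHDC2 and MEIOC only, and nearly all MEIOC DMRs lie where another gene overlaps it. The rank was not recounted without those. YTHDC2, the RNA helicase that clears mitotic transcripts at meiotic entry and is also expressed outside the germline, had 9 hyper-5hmC and 8 hypo-5mC DMRs, and 7 of these were pairs with identical ends. The pairs formed one cluster in introns 16 and 17, from chr5:113555389 to 113557916, and a second in intron 23, from chr5:113576461 to 113578870. One such region of 191 bases and 5 CpGs in intron 17 is printed, from chr5:113557726-113557916 on the plus strand, as an example of a region where both assays called the same ends (CpGs in capitals).
YTHDC2: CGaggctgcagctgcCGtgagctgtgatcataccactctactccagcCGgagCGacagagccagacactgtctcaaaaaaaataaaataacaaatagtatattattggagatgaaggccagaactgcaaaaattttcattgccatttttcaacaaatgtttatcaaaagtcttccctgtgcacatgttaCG

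MEIOC, the partner of YTHDC2, had 6 gains and 5 losses in 33905 bases, at 3.06 d8 DMRs per 10 kb the highest density among the members. All of its DMRs but 1, the hyper-5hmC DMR in intron 6 at chr17:44670892-44671065, lay where the CCDC43 gene overlaps it, so they cannot be assigned to MEIOC alone. STRA8, the retinoic acid-induced regulator of meiotic entry, had no DMR in any list.

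BRDT and TEX14 both held gains and losses along the gene, and these were paired throughout only in BRDT. BRDT, the testis bromodomain protein, had 5 hyper-5hmC and 5 hypo-5mC DMRs, and every one of them overlapped its counterpart. They lay in intron 1 (chr1:91952999-91953032 and chr1:91953417-91953728), around exon 12 (5hmC at chr1:91981143-91982112) and in intron 12. A hypo-5hmC DMR of 21 bases stood in its exon 14. TEX14, a protein of the intercellular bridges between germ cells, had 6 of each. Of these, 3 pairs had identical ends, at chr17:58654445-58654610, chr17:58586544-58586863 and chr17:58564228-58564391. Its other gains and losses had no overlapping counterpart. The promoter of TEX14 held none of these d8 gains and losses.

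Among the cohesin and axis genes, 6 of 8 had a DMR of some list, close to the 76.3% of all members. SMC1B, the meiotic SMC1 subunit, had 6 gains and 5 losses, including a gain and a loss with the same 267 bases and 6 CpGs in intron 12 at chr22:45382855-45383121. HORMAD1, which marks unsynapsed axes, had 2 gains, each within a loss in intron 7, at chr1:150709738-150710170 and chr1:150710668-150711184. HORMAD2 had 1 such pair at chr22:30174650-30175144 and a further 2 losses. In RAD21L1, a meiotic kleisin, 3 losses stood in introns 12 and 13, while its 2 gains lay past the end of the canonical transcript. STAG3, a cohesin subunit of meiosis, and SYCP2 lost 5mC at 2 and 3 places with no gain of 5hmC. The nearest gain to those losses was at least 90892 bases away for STAG3 and 70941 for SYCP2. REC8, the main kleisin of meiotic cohesin, and SYCP3, the axis core protein that binds SYCP2, had no DMR.

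In their whole regions the synaptonemal complex genes held 2 hyper-5hmC DMRs (9.81 per Mb, against 24.1 over all protein-coding genes). They held 1 hypo-5mC DMR (4.90 per Mb, against 41.8). One of the gains was the upstream DMR of TEX12. SYCP1 had 1 gain of 5hmC at chr1:114859156-114859907 inside 1 loss of 5mC, both in intron 6 and about 4 kb downstream of its hyper-5mC start (midpoints 4668 and 4434 bases from the start). The central element genes SYCE1, SYCE2 and SYCE3 had none. A hyper-5mC DMR of 70 CpGs lay 2705 bases past the end of SYCE3, over KLHDC7B.

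Of the genes of break formation, REC114 repeated its promoter pattern along the gene, with its other 4 gains lying on losses in introns 2, 3 and 4. IHO1 carried opposite calls 7 kb apart, hyper-5mC at the start and 2 gains of 5hmC on 2 losses of 5mC in intron 1 (chr3:49206481-49206625 and chr3:49206996-49207315, midpoints 7055 and 7657 bases after the start). MEI1 had 2 gains of 5hmC in intron 7 and no loss. The 8 losses and 1 gain in PRDM9 all lay 13235 to 62701 bases upstream of its canonical start, along a longer annotated transcript, and with the canonical transcript alone the hyper-5mC DMR was its single call. SPO11, the nuclease that makes the breaks, had 3 losses of 5mC and no gain of 5hmC. The closest one to its start, chr20:57330446-57331350 with 13 CpGs, began 643 bases into the gene. MEI4, a partner of REC114, had DMRs in N3+PGCLCs alone.

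Of the strand exchange genes, TEX15 had the most losses of 5mC. This factor, which in the mouse acts in recombination and piRNA-directed silencing, had 7 hypo-5mC DMRs and no hyper-5hmC DMR, and the closest gain to any of them was 40744 bases away. Among 2773 protein-coding genes with at least 7 losses, 42 (1.51%) had no gain of 5hmC. That cut is the count of TEX15 itself, and several of its losses lay close together, from chr8:30841639 to 30845346. Among 5888 genes with at least 3 losses, 407 (6.91%) had no gain. The coding exon 8 held 3 of its losses and exon 4 held 1. DMC1, the meiotic recombinase, had 2 gains on losses, in intron 2 with identical ends at chr22:38567332-38568234 (9 CpGs) and in intron 8, and 1 further loss. MEIOB, a single-strand binding partner, had 1 gain, 2 losses and the hypo-5hmC DMR of 20 bases, all within the overlapping gene ENSG00000289722. MCMDC2, an MCM-family protein needed for break repair in the mouse, had 1 gain in the last exon, and SPATA22, the partner of MEIOB, had none.

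The crossover genes held 19 losses and 7 gains, or 39.3 and 14.5 per Mb, against 41.8 and 24.1 over all protein-coding genes. HFM1, a DNA helicase, had 7 losses and 2 gains, of which 1 pair shared its ends in intron 1 at chr1:91401784-91402582. SHOC1, an XPF-family protein of crossover formation, had 6 losses and 3 gains, with 2 of the gains on losses in introns 5 and 6, at chr9:111759064-111759099 and chr9:111758297-111758568. CCNB1IP1, the E3 ligase also known as HEI10, had 2 gains, both on losses, at chr14:20319674-20320000 and chr14:20327373-20327553. MSH4 and RNF212, a MutS homolog and a SUMO-ligase-type factor, had 2 losses each and no gain, and MSH5, the partner of MSH4, had neither. The losses of RNF212 were the richest in CpGs of the members' hypo-5mC DMRs, with 20 CpGs from 759 bases after the start and 19 CpGs past the canonical end.

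MAJIN, TERB1 and TERB2 tie telomeres to the nuclear envelope in meiosis. MAJIN and TERB1 had both changes and TERB2 had neither. In MAJIN 1 of 4 losses shared its ends with the 1 gain, at chr11:64965543-64966024 with 16 CpGs in intron 1. In TERB1 1 of 3 gains, at chr16:66778862-66778996 in exon 10, lay on the 1 loss.

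**Figure D4:**
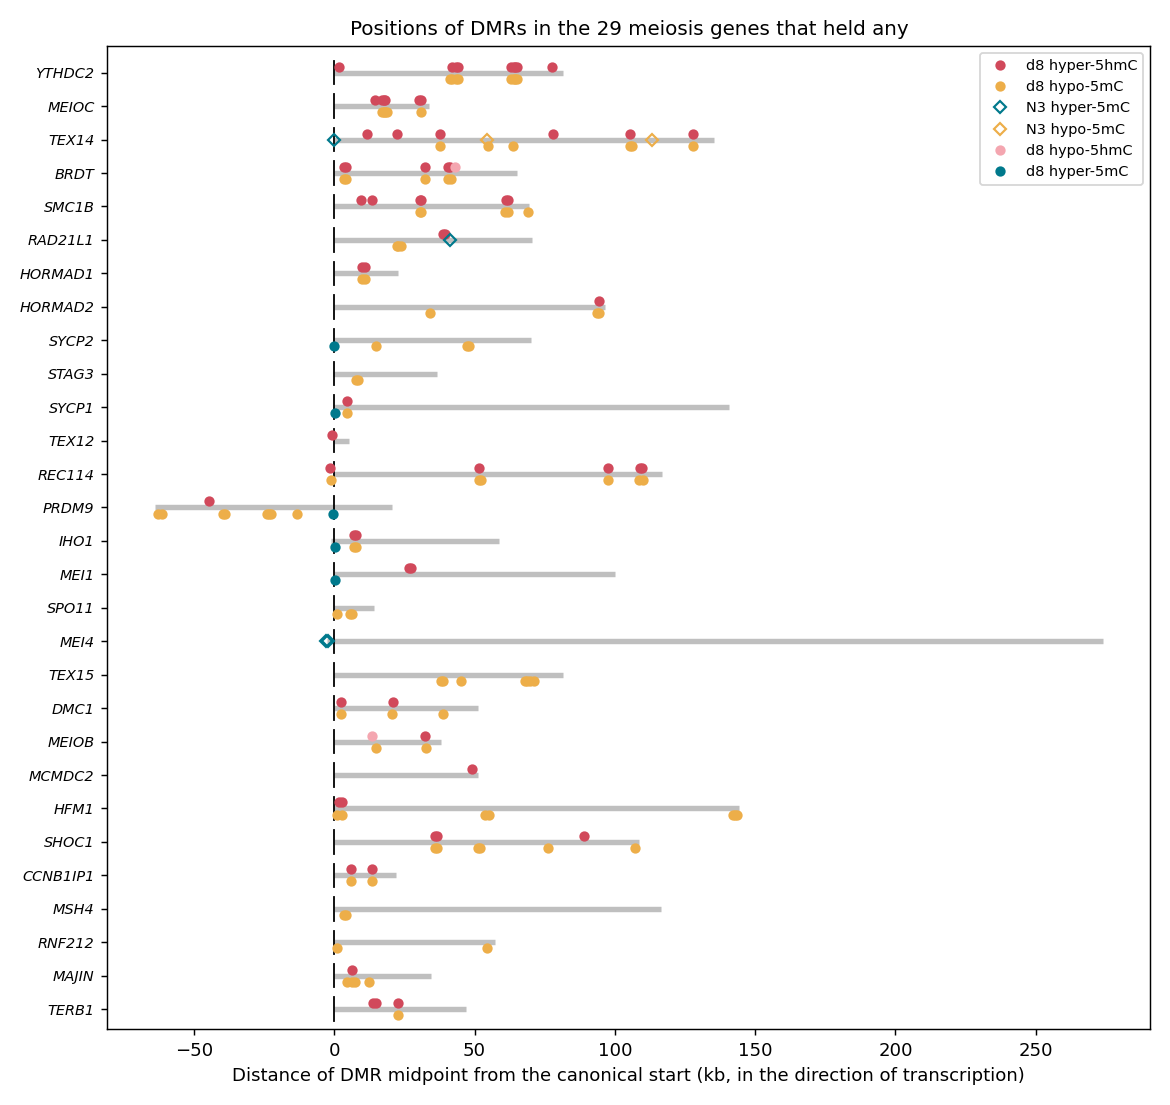
Midpoints of all DMRs in the 29 meiosis genes that held any, in kb from the canonical start (black tick) in the direction of transcription, with grey bars for the annotated gene. The 5 d8 hyper-5mC points sit at the start, while d8 hyper-5hmC and hypo-5mC points are spread along the gene bodies, often together.

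N3+PGCLCs showed little in these genes. Their comparison shares the 4i ES cell libraries with that of d8 DZ+PGCLCs, so the calls are only set side by side. No member held an N3 5hmC DMR, hyper or hypo, where 2.83% and 3.80% of protein-coding genes did. An N3 hyper-5mC DMR was found in 3 members (7.89%, against 8.94%) and a hypo-5mC DMR in 1 (2.63%, against 3.20%). MEI4 had 2 hyper-5mC DMRs near the start of its longest annotated transcript, at chr6:77650024-77650095 and chr6:77650658-77650737, which are 2980 and 2342 bases upstream of the canonical start. RAD21L1 had 1 past its canonical end, at chr20:1267319-1267504 in SNPH. TEX14 had, besides its promoter DMR, N3 hypo-5mC DMRs at chr17:58578899-58578917 and chr17:58637416-58637533. At the latter place the d8 list had a hypo-5mC DMR at chr17:58637175-58637533. At the 5 promoters with d8 hyper-5mC the N3 lists held no call of the same direction.

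DMRT1, which the d8 cells were made to express, binds the core ACAATGT (reverse complement ACATTGT). In 500 bases centred on the DMR the core stood in 10 of the 64 gains (15.6%, against 17.1% of those in all protein-coding genes) and in 18 of the 98 losses (18.4%, against 16.4%). The longer DMRT1 consensus, allowing 2 mismatches on either strand, stood at 24 gains (37.5%, against 25.4%) and 29 losses (29.6%, against 24.4%). None of the 5 hyper-5mC DMRs had either within that window. Both were also rare at the d8 hyper-5mC DMRs of all protein-coding genes, 4.28% for the core and 4.02% for the consensus. The motifs overlap, since the core is the centre of the consensus.

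The 9 members with no DMR in any list were SYCP3, SYCE1, SYCE2, SYCE3, REC8, STRA8, MSH5, SPATA22 and TERB2. Their lengths ran from 8405 bases for REC8 to 73834 for SPATA22. The distance from their start to the nearest DMR of any list was 4533 bases for SYCE3, 13198 for SYCP3, 13836 for TERB2, 19148 for STRA8, 29585 for SYCE2, 35968 for SYCE1, 62703 for SPATA22, 219017 for REC8 and 1768164 for MSH5. A gene without a call may hold unchanged CpGs or CpGs with too few reads to call, and depth per site was not analysed here. Outside the members' spans, within 5000 bases, the closest calls were a hyper-5hmC DMR 478 bases upstream of the TEX14 region, in RAD51C, and a hypo-5mC DMR 538 bases upstream of that of TEX12.

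Another 27 genes of meiosis were counted in the same way, and 26 were matched to the annotation. Of these, 17 (65.4%) had a d8 hyper-5hmC DMR, against 45.6% of protein-coding genes, and 17 (65.4%) a d8 hypo-5mC DMR, against 50.0%, with 22.0 and 30.1 DMRs per Mb. A d8 hyper-5mC DMR was found in 2 (7.69%), near the 6.40% of protein-coding genes. In KASH5, which links telomeres to the cytoskeleton in meiosis, this DMR contained the start, with 59 CpGs in 777 bases at chr19:49387789-49388565, from 460 before to 316 after the start. The N3 list held a hyper-5mC DMR of 4 CpGs at chr19:49388199-49388215, inside the same bases. The other was in C11orf80 (TOP6BL), outside the promoter window. KASH5 was thus the only gene of the 26 with a d8 hyper-5mC DMR over its start, which 0.270% of protein-coding genes had. Among the 5 mitotic cohesin genes SMC1A, SMC3, RAD21, STAG1 and STAG2, 3 (60.0%) had a d8 hyper-5hmC and 4 (80.0%) a d8 hypo-5mC DMR, led by STAG1 with 19 and 33 in a gene of 416168 bases. A d8 hyper-5mC DMR was found in 2 (40.0%), STAG1 and STAG2, in neither case over the promoter window.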

How the data were processed

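Genomic DNA of 12 WIS2 libraries was converted for 5mC (TAPSβ) or 5hmC (CAPS) and sequenced by the authors. Their processing used Trim Galore for trimming, the rmdup function of Samtools against duplicates, the GRCh38 genome and asTair for the base calls. DMRs against 4i ES cells were called by the authors with DMRfinder over both replicates of a stage together, with a smaller required difference for 5hmC than for 5mC. The versions are not given in the sources used here. The deposited tables give chromosome, start, end and direction of each DMR, and starts, counted from 0 in the files, were changed to count from 1. On hg38, 97.5% of the DMRs began at the C of a CpG.

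DMRs were counted by midpoint in each gene of GENCODE release 44 (body plus 2000 bases upstream), and the same counts were made for all protein-coding genes. CpGs were counted from hg38. Python 3 scripts with pysam and numpy were used, and the interval counts were tested on simulated regions. The members and gene lists were chosen with earlier results of these data known. Coordinates are given for members with a promoter DMR, an N3+PGCLC DMR, a 5hmC gain on a 5mC loss, or a high density of d8 DMRs. Sequences are given for up to 8 regions, promoter DMRs first. Alternatives were other gene spans, start sites, overlaps, CpG minimums and motifs. The promoter and start counts of hyper-5mC, with their alternatives, were added after the data were seen. No test was made, since the tables hold no value per library and the precision of a call is unknown.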

Additional observations from a re-analysis of the deposited data

How the results depend on the processing

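No paired analysis was possible because the tables hold regions called over both replicates together, with no value per replicate, and for the same reason leaving out each replicate could not be run. Only DMRs of at least 5 CpGs left 28 d8 hyper-5hmC and 50 d8 hypo-5mC DMRs in members, 18 of each on the other, 2 N3 hyper-5mC DMRs, and 0 of the d8 hypo-5hmC and N3 hypo-5mC calls (0 members). Merging within 1 kb left 60 d8 hypo-5mC DMRs. With the canonical transcript alone 1 member held an N3 hyper-5mC DMR (1 DMR), and with the gene body alone 2 such DMRs were left. Requiring identical ends left 25 shared gains and 25 shared losses. With every annotated start 16 members (42.1%, against 28.7% of protein-coding genes) had a promoter DMR. The DMRT1 consensus was found at 53 of the gains and losses, where the core was found at 28. The d8 hyper-5mC promoter count stayed at 5 members under each of the 5 alternatives added after seeing the data, against 0.923% to 2.12% of protein-coding genes. Each of these 5 DMRs contains the canonical start, has its midpoint near it and holds at least 29 CpGs. The alternatives therefore could not drop any of them, and the unchanged count is no further support. Short DMRs limit the body counts, with a median of 4 CpGs in the gains.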

Other observations

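The 54 protein-coding genes whose canonical start lay inside a d8 hyper-5mC DMR held other genes of the germline besides the 5 members and KASH5, named here after their values were seen. MOV10L1, an RNA helicase of the piRNA pathway, had 78 CpGs in its DMR, PLD6, a mitochondrial nuclease of the same pathway, had 142, and TDRD5, a tudor protein of the male germline, had 73. The sperm genes ZPBP2 and CATSPERE had 74 and 72. These are a selection, and most of the 54 were other genes, among them ZNF596 (143 CpGs), CFLAR (130), COX7A1 (104) and CTSF (95). No list of germline genes was tested for its share among the 54.

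MSH5 lay in a stretch of chromosome 6 without a DMR of any list, 3.75 Mb long (from 29753940 to 33508169) and holding 157 protein-coding genes, which overlaps the major histocompatibility complex. The median distance from a canonical start to the nearest DMR was 9.38 kb over protein-coding genes and 6.08 kb over the members, and 43 protein-coding genes were as far from one as MSH5 or farther. Whether reads there could be called was not tested.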
